A study of Homo sapiens with 2 samples.

Results

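Genes of the mitogen-activated protein kinase (MAPK) cascade and of the dual-specificity phosphatases (DUSPs) were examined in A549 cells treated with paclitaxel. Members were all rows whose gene symbol begins with MAPK, MAP2K, MAP3K, MAP4K, MAPKAPK or DUSP followed by a digit. The rule found 3 of the 993 transcripts in the deposited expression table, and 152 of the 35827 events in the deposited table of skipped exons. The 152 events lie in 47 of 9939 genes and hold 133 of 31197 distinct exons. Exons were told apart by their start and end positions, so overlapping forms of an exon count separately. A549 is a human lung adenocarcinoma line, and paclitaxel is a taxane that stabilizes microtubules. Cultures in F12K medium with fetal bovine serum were kept for 72 h with DMSO (0 nM drug) or with paclitaxel at 7.22 nM, and each condition gave 1 RNA library. With 1 library per condition there is no spread between replicates, so no test was made and every difference is a description of 2 libraries.

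The MAPK cascade relays signals through kinases that phosphorylate each other in order. MAP4Ks and small GTPases act on MAP3Ks, MAP3Ks on MAP2Ks, and MAP2Ks on the MAP kinases of the ERK, JNK and p38 branches, which in turn activate MAPKAP kinases and transcription factors. DUSPs of the MAP kinase phosphatase (MKP) type remove the activating phosphates from threonine and tyrosine of the MAP kinases. In lung adenocarcinoma the ERK branch is known as the main outlet of growth factor receptors, and the JNK and p38 branches as responders to stress.

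The measured values concern 3 transcripts, and the remaining data are the positions of exons. The expression table lists FPKM, the number of fragments scaled to transcript length and library size, for selected transcripts only. The column whose name carries a T after that of the cell line was read as paclitaxel and the other as DMSO, from the names alone. The smallest difference in this table is 1.52 on the log2 scale of the plain ratio, so members outside it have no value here and are not shown to be unchanged. The table of skipped exons names for each event an internal exon and its neighbours. Its values per library stand in columns that name no condition. They were not used, so no inclusion level is given and nothing is said here of whether paclitaxel changed an exon. A gene without a listed event is not shown to lack skipped exons. Nor is a listed event shown here to be an exon skipped in these cells, because only names and positions were used.

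The sequences below show the exons to which the results refer, read from hg38 on the strand of the gene from 5′ to 3′. Capitals mark the exon, and the 10 lower case bases on each side are intron. Exon numbers follow the MANE Select transcript, the reference transcript of each gene, in GENCODE 44. The first pair lies in the kinases that also had a listed transcript, and both are coding exons.
MAP2K2 exon 2 (chr19:4117409-4117639, minus strand): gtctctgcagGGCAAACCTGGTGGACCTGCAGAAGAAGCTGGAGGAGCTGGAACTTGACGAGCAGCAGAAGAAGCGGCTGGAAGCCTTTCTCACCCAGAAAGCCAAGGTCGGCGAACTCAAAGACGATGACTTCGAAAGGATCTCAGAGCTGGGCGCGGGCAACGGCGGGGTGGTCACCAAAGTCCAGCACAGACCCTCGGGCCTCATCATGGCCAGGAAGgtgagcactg
MAP3K4 exon 17 (chr6:161098268-161098437, plus strand): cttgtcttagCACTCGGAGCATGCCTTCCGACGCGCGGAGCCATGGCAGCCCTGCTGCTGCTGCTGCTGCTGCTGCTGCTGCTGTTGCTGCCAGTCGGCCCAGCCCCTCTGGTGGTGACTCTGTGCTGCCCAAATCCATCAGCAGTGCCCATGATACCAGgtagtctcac

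The next set shows short exons that keep the reading frame when they are left out. MAP4K4 exon 21 is the shortest exon of all members, MAP3K5 exon 3 and MAP3K6 exon 3 have the same length in 2 related kinases, and MAP3K7 exon 12 is a cassette exon of the kinase TAK1. The last 3 were picked after their lengths had been seen.
MAP4K4 exon 21 (chr2:101868019-101868047, plus strand): tgtactgaagGGCGAAGTGgtaagcgcca
MAP3K5 exon 3 (chr6:136705100-136705143, minus strand): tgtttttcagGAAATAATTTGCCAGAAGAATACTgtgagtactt
MAP3K6 exon 3 (chr1:27364651-27364694, minus strand): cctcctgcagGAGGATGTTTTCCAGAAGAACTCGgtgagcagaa
MAP3K7 exon 12 (chr6:90544542-90544642, minus strand): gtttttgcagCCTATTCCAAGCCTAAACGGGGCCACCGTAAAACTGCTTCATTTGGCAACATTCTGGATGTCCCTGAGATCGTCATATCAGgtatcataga

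Of the 3 listed transcripts, 2 were higher and 1 was lower upon paclitaxel treatment. A transcript counted as higher or lower at a difference of at least 2-fold on the scale of log2(FPKM + 1). On this scale 39.4% of all 993 transcripts were higher and 52.7% were lower, so a count of 3 transcripts says nothing particular to the family. The median difference of the 3 transcripts was 2.50 on the log2(FPKM + 1) scale, against -1.31 over the whole table. Both higher transcripts stood far up the table, and the lower one was near its middle.

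The transcript of MAP3K4, a MAP3K that binds GADD45 proteins and signals to p38 and JNK, was the lower one of the 3. MAP3K4-204 (ENST00000392142) stood at 1.41 FPKM in the DMSO library and was listed at 0 in the paclitaxel library. The difference was -1.27 on the log2(FPKM + 1) scale, and no fold is given against a value of 0. It was -3.91 with a pseudocount of 0.1 FPKM, and the transcript no longer counted as lower at a 4-fold threshold. A listed 0 occurred for 32 transcripts of the table with paclitaxel, whose DMSO levels ran from 0.452 to 35.4 FPKM with a median of 2.99 FPKM. The DMSO level of MAP3K4 was below that of 27 of these transcripts. MAP3K4-204 is the MANE Select transcript, with 27 exons, 5500 exonic bases and a coding sequence for 1608 residues, on the plus strand of chromosome 6 from 160991769 to 161117380. MAP3K4-203 also has 27 exons, with 5445 exonic bases and a start 45 bases further downstream. Fragments from shared exons had to be divided between the models, so the listed 0 of MAP3K4-204 is uncertain. GENCODE 44 holds 16 transcripts of the gene, and the other 15 have no value here. The total level of MAP3K4 is therefore not known from these data.

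MAP2K2, or MEK2, the kinase that phosphorylates ERK, had the highest level of the 3 members. MAP2K2-202 (ENST00000394867) stood at 4.02 FPKM with DMSO and at 27.5 FPKM with paclitaxel. Its plain ratio was 6.83-fold, and its difference was 2.50 on the log2(FPKM + 1) scale, which is rank 42 among the 993 transcripts from the highest down. GENCODE 44 classes this transcript as a retained intron form with no coding sequence, so its level cannot be read as a level of the MEK2 message. The transcript has 10 exons and 1899 bases on the minus strand of chromosome 19 from 4090341 to 4118160. It begins 5962 bases downstream of the start of the coding transcript MAP2K2-201, within intron 1, and 8 of its 10 exons are also exons of MAP2K2-201. Fragments from those shared exons had to be divided between the models, so the level of a single model is uncertain. Of the 948 transcripts of the table found in GENCODE 44, 3 belong to the retained intron class, and MAP2K2-202 had the highest paclitaxel level among them. The coding transcript MAP2K2-201, which encodes 400 residues, has no value here.

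DUSP14, also called MKP6, is a small atypical phosphatase known to act on MAP kinases and on the TAK1 complex. DUSP14-204 (ENST00000613659) stood at 1.13 FPKM with DMSO and at 16.5 FPKM with paclitaxel. The plain ratio was 14.6-fold and the difference 3.04 on the log2(FPKM + 1) scale, rank 14 from the highest down. The transcript has 3 exons on the plus strand of chromosome 17 from 37491464 to 37513487. All 3 transcripts of the gene in GENCODE 44 have a coding sequence for 198 residues. DUSP14-204 begins 1573 bases downstream of the MANE Select transcript DUSP14-206 and has another first exon. Its remaining exons lie within exons of DUSP14-206. Fragments from shared exons had to be divided between the models, so the level of a single model is uncertain. DUSP14-205 and DUSP14-206 have no value here, so the total level of DUSP14 is not known from these data. No skipped exon event of DUSP14 is in the table used here.

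**Figure D1:**
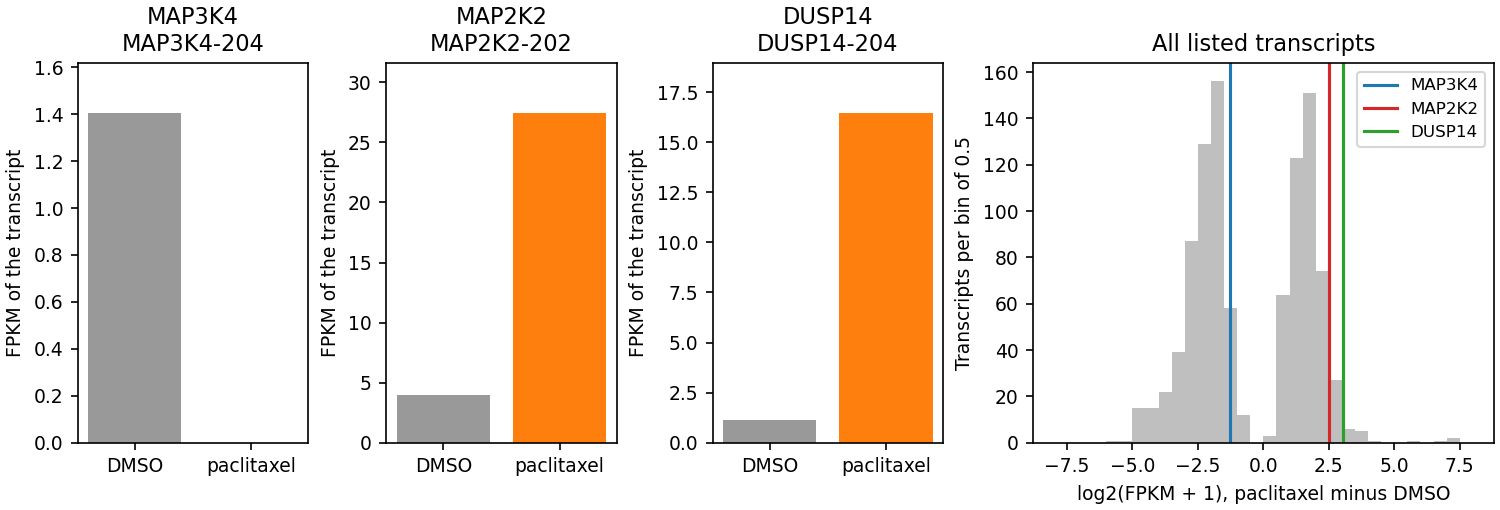
FPKM of the 3 listed member transcripts in the DMSO and the paclitaxel library (bars, 1 library each, y axes start at 0 and differ between panels), and a histogram of the difference in log2(FPKM + 1), paclitaxel minus DMSO, over all 993 listed transcripts with the members as vertical lines. MAP3K4 is at 1.41 FPKM with DMSO and listed at 0 with paclitaxel, MAP2K2 and DUSP14 stand at 27.5 and 16.5 FPKM with paclitaxel, and 391 of the 993 transcripts lie at or above 1 and 523 at or below -1.

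Other genes of the pathway were looked up in 6 lists with 105 genes in all, and 7 of these genes were in the expression table. All 7 were at least 2-fold higher on the log2(FPKM + 1) scale and 0 were lower, beside 39.4% and 52.7% of the whole table. The lists were drawn up with earlier results of these data known, so their direction is not independent evidence. Among 24 receptors and ligands, the 4 listed ones were ligands. For NRG1, a ligand of ERBB receptors, the DMSO level was 1.72 FPKM and the paclitaxel level 18.5 FPKM. TGFA, a ligand of the EGF receptor, went from 3.84 to 13.9 FPKM. The cytokines IL1A and IL1B, which signal to JNK and p38 through TAK1, went from 0.233 to 3.93 FPKM and from 0.0576 to 2.74 FPKM. Of 13 upstream activators of MAP3Ks only GADD45A was listed, a partner of MAP3K4. Its 2 transcripts stood at 21.4 and 0.594 FPKM with DMSO and at 99.3 and 6.42 FPKM with paclitaxel. Of 26 transcription factors and early response genes 2 were listed. The difference was 3.60 for ATF3 and 1.52 for EGR1, both on the log2(FPKM + 1) scale. None of 24 genes of small GTPases, RAF kinases and adaptors, none of 10 feedback inhibitors such as the Sprouty genes and none of 8 kinases downstream of the MAP kinases were in the table.

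The same libraries differed in 3 globin transcripts, and the source of these transcripts was not tested. Of 11 red blood cell markers 3 were listed, HBA1, HBA2 and HBB. Their summed level was 0.118 FPKM with DMSO and 458 FPKM with paclitaxel, while ALAS2, SLC4A1, AHSP and the other markers of the list were not in the table. None of 5 leukocyte, 4 fibroblast and 3 endothelial markers were listed. KRT19 was the only one listed of 10 markers of the lung epithelial line, at 22.9 and 107 FPKM, so the identity of the cells cannot be checked from this table. The part of the globin difference in the member values was not tested.

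Of the genes with a listed transcript, MAP2K2 and MAP3K4 also had skipped exon events, and the positions can be compared. The event of MAP2K2 concerns exon 2, of 211 nucleotides at chr19:4117419-4117629, which is wholly coding and not a multiple of 3. In the listed transcript MAP2K2-202 this exon is part of a first exon of 742 bases, which extends 531 bases into intron 1. MAP2K2-202 thus has no junction at the start of exon 2, and in GENCODE 44 no transcript of MAP2K2 joins the neighbouring exons of this event directly. MAP3K4 had 4 events, each of another exon, and GENCODE 44 holds a skipped form for all 4. Exon 17, of 150 nucleotides or 50 codons, is the only one of these exons that the listed transcript MAP3K4-204 contains. It carries a run of 10 GCT triplets. The coding transcripts MAP3K4-201 and MAP3K4-202 lack it, with 1554 and 1558 residues, whereas MAP3K4-203 and MAP3K4-204 hold it, with 1604 and 1608 residues. The other 3 exons, of 46, 91 and 98 nucleotides, are not part of the MANE Select transcript, and none of the 3 is a multiple of 3 in length.

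**Figure D2:**
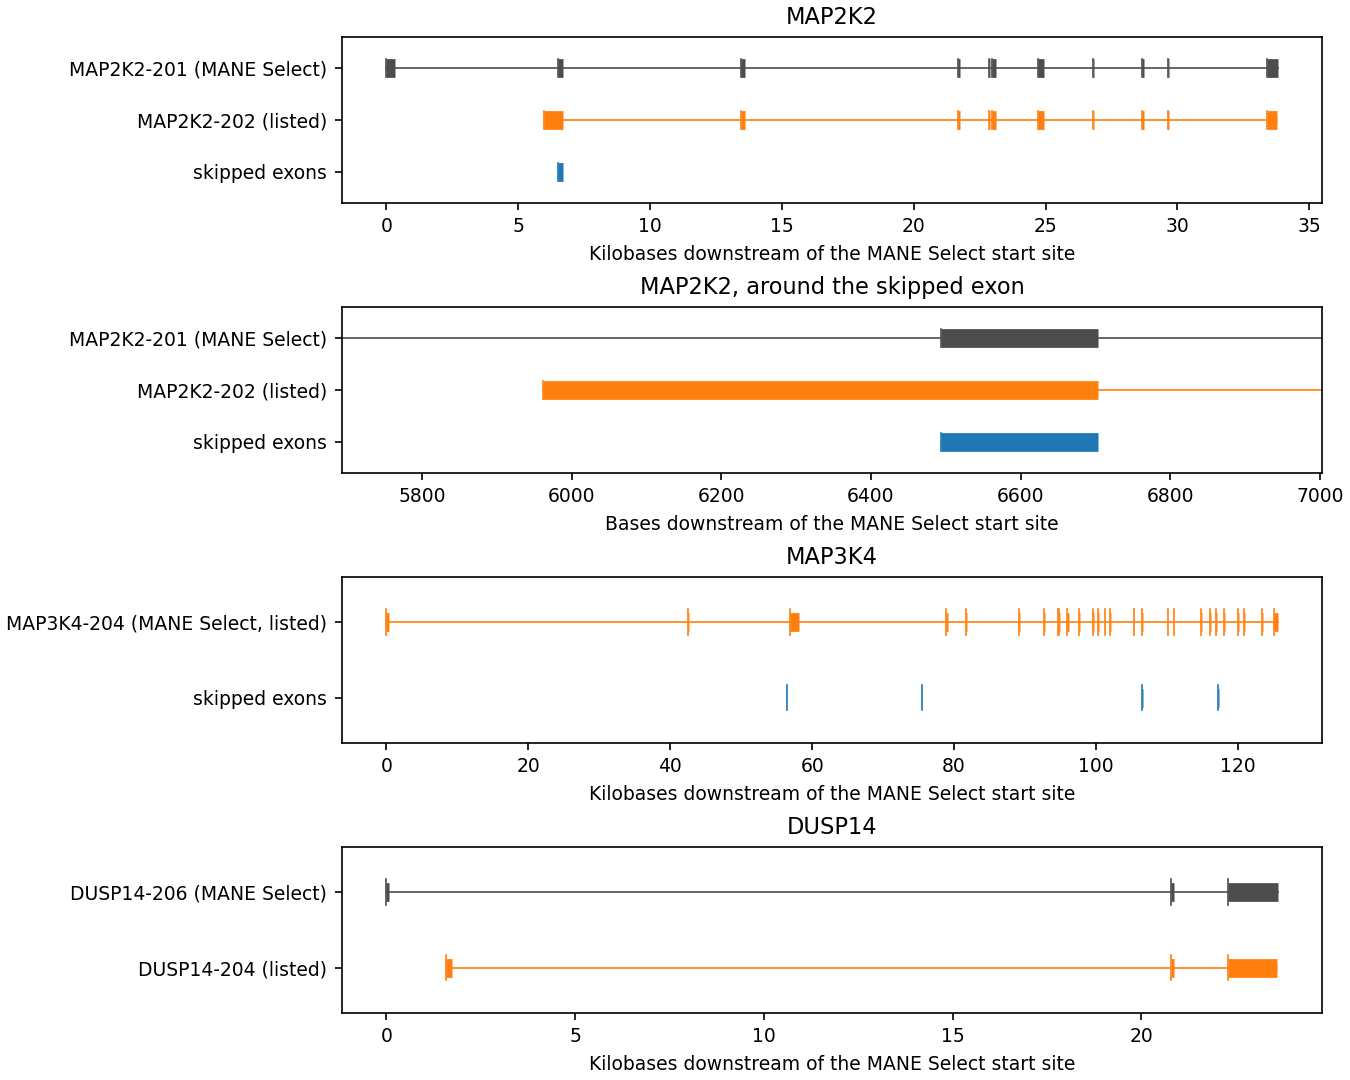
Exons (boxes, with a tick at the start of each) of the MANE Select transcript and of the listed transcript of MAP2K2, MAP3K4 and DUSP14 and the skipped exons of the events (blue), by distance downstream of the MANE Select start site in kilobases, with the surroundings of the MAP2K2 event in bases in the second panel. The first exon of MAP2K2-202 covers the skipped exon 2 and 531 further bases, and DUSP14-204 starts 1573 bases after DUSP14-206.

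Skipped exon events were listed for 45 of the 75 protein-coding genes of the rule. Another 2 genes with events, MAP3K14-AS1 and MAPKAPK5-AS1, are antisense RNA genes that make no kinase. MAP3K7CL, with 3 events, carries the name of a kinase without being one. The number of events per gene was small and unevenly spread. A single event was listed for 15 genes, 2 to 4 events for 26 genes and 5 or more for 6 genes. The median was 2 events per gene, against 3 over the 9939 genes of the table. Another 3 genes with 3 events in all stand in the table under older symbols and were not counted. They are MAP3K20 (as ZAK) and the non-coding genes MAP4K3-DT and DUSP5-DT.

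**Figure D3:**
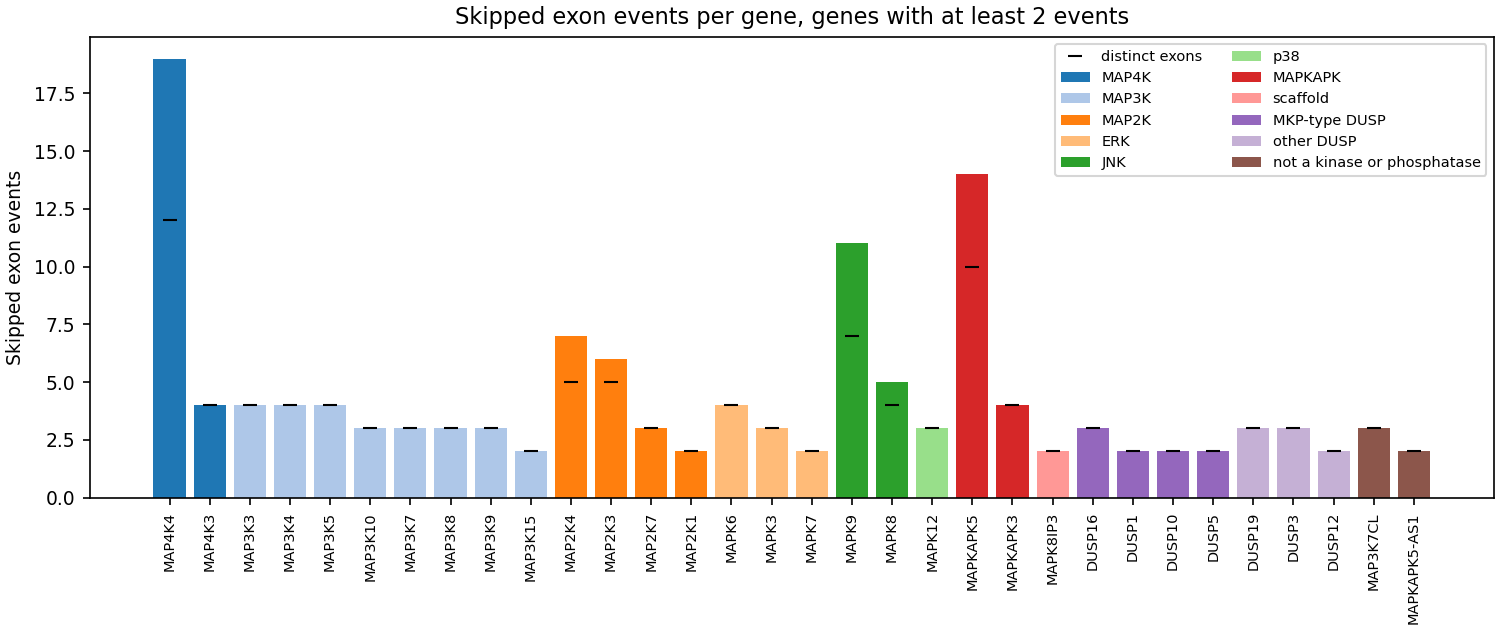
Number of skipped exon events (bars, coloured by family) and of distinct exons (black marks) for each gene with at least 2 events. MAP4K4 with 19, MAPKAPK5 with 14 and MAPK9 with 11 events stand above all others, and in these genes several events share 1 exon.

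The top of the cascade held the gene with the most events. Of 24 MAP4K events in 3 genes, 19 belong to MAP4K4, a Ste20-type kinase that signals to JNK. They concern 12 distinct exons, 11 of which are among the 33 exons of the MANE Select transcript. The remaining one is a shorter form of exon 15, with 129 nucleotides. Exons 13 to 18 form an unbroken block, in which exons 13 and 14 occur in 3 events each with different neighbours. All 12 exons are coding and 9 of them keep the frame, from exon 21 with 9 nucleotides, or 3 codons, to exon 17 with 231 nucleotides. Over the table, 44.4% of wholly coding exons keep the frame. Skipping of exons 16, 17, 21 and 24 is annotated in protein-coding transcripts of GENCODE 44. MAP4K3 had 4 events of 42 to 61 nucleotides and MAP4K5 had 1 of 56 nucleotides. MAP4K1 and MAP4K2 had no event.

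MAP3Ks held 31 events in 13 genes, each a different exon. Of the 31 exons 26 were wholly coding, and 12 of these 26 keep the frame, beside 44.4% of all wholly coding exons. MAP3K5 and MAP3K6, also known as ASK1 and ASK2, bind each other and respond to oxidative stress. Their exon 3 has 24 nucleotides, or 8 codons, in both genes, and 15 of the 24 bases are identical (62.5%). GENCODE 44 holds a coding transcript without the exon for MAP3K6 and none that skips it for MAP3K5. MAP3K7, the kinase TAK1 of the interleukin and TGF-β pathways, had events of exons 3, 12 and 16, with 66, 81 and 116 nucleotides, and coding transcripts without each of them are annotated. Exon 12 accounts for 27 codons. The longest MAP3K exons were those of MAP3K10 (exon 9, 705 nucleotides) and of MAP3K14, the NF-κB inducing kinase (exon 5, 615 nucleotides), both a multiple of 3. MAP3K2, MAP3K13, MAP3K19 and MAP3K21 had no event.

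MAP2Ks held 19 events of 16 distinct exons in 5 genes. For 13 of the 19 events a skipped form is annotated, beside 48.2% of all events. MAP2K4, the JNK and p38 kinase MKK4, had 7 events of 5 coding exons. Among them is an exon of 33 nucleotides that is absent from the MANE Select transcript, whereas for exons 2, 3 and 5 the annotated skipped forms are targets of nonsense-mediated decay (NMD). MAP2K1, or MEK1, had events of exons 3 and 4, of 147 and 78 nucleotides, both in frame and both missing from an annotated coding transcript. MAP2K3, a p38 kinase, had 6 events and MAP2K7, a JNK kinase, had 3 events with exons of 48, 67 and 81 nucleotides. MAP2K5 and MAP2K6 had no event.

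Among the MAP kinases the JNK genes had 16 events of 11 distinct exons, the ERK genes 10 of 10 and the p38 genes 4 of 4. MAPK9, or JNK2, had 11 events of 7 exons and MAPK8, or JNK1, had 5 events of 4 exons. In MAPK9 the events concern exons 2, 4, 10 and 11 and another 3 exons outside the MANE Select transcript, and exon 2, which is partly coding, occurs in 3 events. Of the 11 JNK exons 5 were wholly coding, beside 70.9% of all exons of the table. Of these 5, 1 keeps the frame, MAPK9 exon 11 with 72 nucleotides, beside 44.4% of all wholly coding exons. The ERK genes held 10 events. They included exon 6 of MAPK3 (132 nucleotides) with a longer form of 149 nucleotides, and 2 very short exons of MAPK7, or ERK5, with 13 and 18 nucleotides. Exon 2 of MAPK6, or ERK3, had 1186 nucleotides and was the longest exon of all members. For p38 kinases, 3 events of MAPK12 and 1 of MAPK11 were listed, and MAPK11 exon 3 had 59 nucleotides. MAPK4, MAPK10, MAPK13, MAPK14 and MAPK15 had no event.

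Downstream kinases were represented by 19 events in 3 genes. MAPKAPK5, known as PRAK, had 14 events of 10 exons, and these included exons 2 to 9 without a gap. Exon 5, of 109 nucleotides, occurred in 3 events. Of the 10 exons 4 keep the frame, and for 3 of the 14 events a skipped form is annotated, beside 48.2% of all events. MAPKAPK3 had events of exons 7 to 10, and MAPKAPK2, the p38 target MK2, had 1 event of exon 9 with 81 nucleotides. Scaffold and MAPK-interacting genes contributed 2 events of MAPK8IP3 and 1 of MAPK1IP1L, whose exon has 22 nucleotides. MAPK8IP1 and MAPK8IP2 had no event.

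DUSP genes held 20 events of 20 exons, divided evenly between 5 MKP-type genes and 5 other genes. The exons of DUSP3, DUSP12 and DUSP19 include overlapping forms that share a boundary. DUSP1 and DUSP5, nuclear phosphatases of MAP kinases, each had events of exons 2 and 3. Exon 3 has 220 nucleotides in both, and 143 of the 220 bases are identical without a gap (65.0%). The pair was picked after the lengths had been seen.
DUSP1 exon 3 (chr5:172769565-172769804, minus strand): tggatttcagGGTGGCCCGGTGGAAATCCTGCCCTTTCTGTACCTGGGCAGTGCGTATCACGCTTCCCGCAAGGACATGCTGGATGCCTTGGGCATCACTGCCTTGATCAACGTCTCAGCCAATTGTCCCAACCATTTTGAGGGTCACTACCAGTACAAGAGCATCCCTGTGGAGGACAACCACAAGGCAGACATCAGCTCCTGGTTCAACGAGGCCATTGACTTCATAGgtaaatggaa
DUSP5 exon 3 (chr10:110506925-110507164, plus strand): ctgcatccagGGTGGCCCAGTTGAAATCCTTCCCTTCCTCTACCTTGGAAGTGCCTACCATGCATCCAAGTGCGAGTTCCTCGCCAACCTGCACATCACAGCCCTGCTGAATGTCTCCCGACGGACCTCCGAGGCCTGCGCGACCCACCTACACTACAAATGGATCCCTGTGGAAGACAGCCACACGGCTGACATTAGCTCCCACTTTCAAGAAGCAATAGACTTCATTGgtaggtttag

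None of the 4 exons of DUSP1 and DUSP5 keeps the frame, and GENCODE 44 holds no skipped form of any of them. DUSP6, the cytoplasmic ERK phosphatase, had 1 event of exon 2, with 438 nucleotides, in frame and absent from an annotated coding transcript. DUSP10, which acts on JNK and p38, had exons of 372 and 854 nucleotides, and DUSP16 had 3 exons of 124 to 164 nucleotides. Of the 8 wholly coding exons of MKP-type genes 2 keep the frame, beside 44.4% of all wholly coding exons. The other DUSPs with events were DUSP3, DUSP11, DUSP12, DUSP18 and DUSP19, with exons of 35 to 285 nucleotides. No event was listed for DUSP2, DUSP4, DUSP7, DUSP8 and DUSP9 of the MKP type, nor for DUSP13, DUSP14, DUSP15, DUSP21, DUSP22, DUSP23, DUSP26, DUSP28 and DUSP29.

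**Figure D4:**
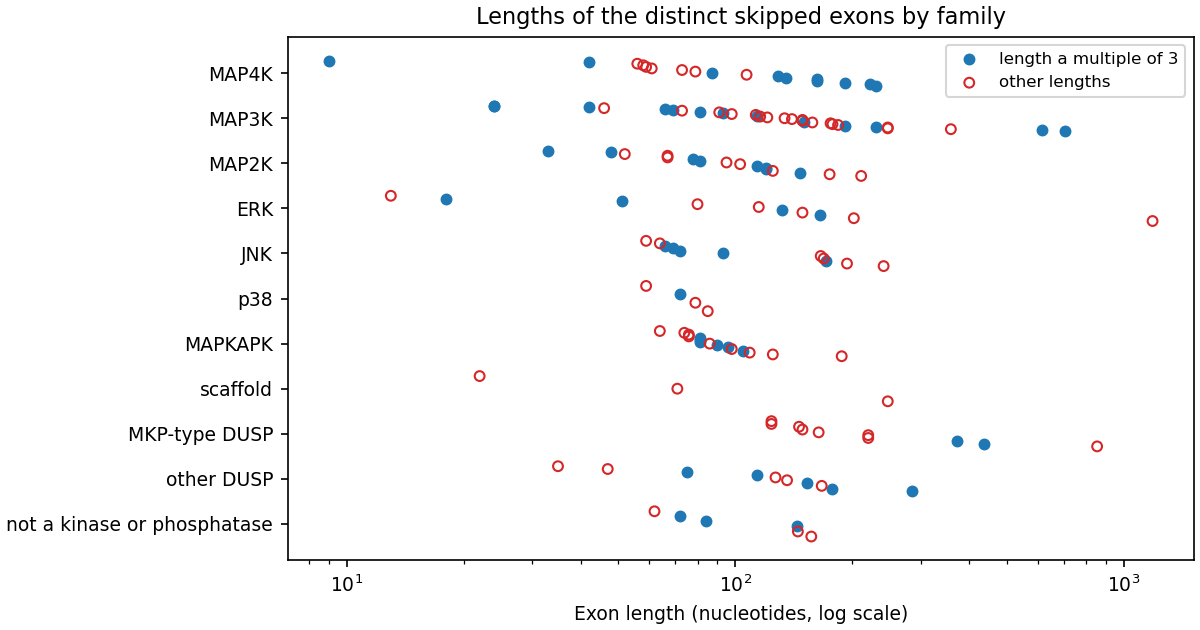
Length in nucleotides (log scale) of each of the 133 distinct skipped exons by family, with filled points for lengths that are a multiple of 3 and open points for others. MAP4K has 10 filled points of 17, 9 of them in MAP4K4, and the MKP-type DUSPs have 2 of 10. All members have 57 of 133, and the share over all exons of the table is 41.1%. Lengths run from 9 nucleotides in MAP4K4 to 1186 in MAPK6.

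As a whole, the member exons were close to the table in most properties, and no test was made of these shares. A length that is a multiple of 3 was found for 57 of 133 member exons (42.9%) and for 41.1% of the 31197 exons of the table. Among wholly coding exons the shares were 46.1% of 102 and 44.4% of 22131. Wholly coding exons made up 76.7% of the member exons and 70.9% of the table. The skipping junction was annotated in GENCODE 44 for 69 of 152 member events (45.4%), against 48.2% of all events. Where it was annotated, 72.5% of the member events and 75.0% of all events had a protein-coding skipped form. All skipped forms were NMD targets for 11 of these 69 member events (15.9%), against 10.6%. The 11 events include repeats of the same exon, for MAP2K4 exons 2 and 3. All 133 member exons are annotated in GENCODE 44, whereas 295 of the 31197 exons of the table (0.946%) are not. Exons of at most 27 nucleotides numbered 6 among the members (4.51%), against 239 of 31197 in the table (0.766%), and they belong to MAP4K4, MAPK7 (2 exons), MAPK1IP1L, MAP3K5 and MAP3K6. All 133 member exons follow an AG and precede a GT or GC in hg38, as do 99.8% of the exons of the table.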

How the data were processed

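RNA of 1 DMSO library and 1 paclitaxel library of A549 cells was sequenced. Both poly(A) purification and removal of ribosomal RNA are stated in the methods. The deposited values are FPKM of single transcripts, which the authors estimated with Cufflinks. Reads were mapped to hg38 with MapSplice according to the paper, whereas the processing notes of the submitters list TopHat besides Cufflinks and CASAVA 1.8.2. None of the sources used here names the annotation release. The FPKM column with a suffix T after the name of the cell line was read as paclitaxel and the other as DMSO. Cufflinks divides fragments among transcripts, so read depth is unknown and no counting error is given.

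The deposited table of skipped exons has the layout of MATS, whereas the paper names MISO, and only its gene names and coordinates were used. Another 6 columns hold counts and levels per library but name no condition, and were not used. Both tables also hold the authors' own comparisons (differences or fold changes, p-values and adjusted p-values), which were not used.

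Differences were taken on log2(FPKM + 1). All 3 member transcripts and 948 of 993 transcripts in all were found in GENCODE 44. An exon was called coding where a GENCODE transcript of its gene codes over its whole length, and a junction annotated where such a transcript holds it. Code was tested on simulated data (Python 3.11.15, pandas 2.3.3). Every listed member transcript was named. Some genes are not reported by name here. Exons named are those of genes with a listed transcript, of the 3 genes with the most events, the shortest and the longest, and further exons picked after their positions were seen. Members and lists were chosen with earlier results of these data known.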

Additional observations from a re-analysis of the deposited data

How the results depend on the processing

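Of 26 alternative values computed, 23 kept their direction and stayed within 1.5 times of the reported count or median, or on their side of the 2-fold threshold. The count of 2 higher transcripts was 2 under all 7 alternatives tried for it. No other outcome was possible, because both transcripts differ by more than 4-fold and have at least 1 FPKM in both libraries. Each is also the only listed transcript of its gene. These 7 values are among the 26, so neither count is a measure of stability. The count of lower transcripts went from 1 to 0 under 3 of 7 alternatives, which concerns MAP3K4: 0 with the plain ratio, which leaves out transcripts listed at 0, 0 with at least 1 FPKM in both libraries, and 0 with a 4-fold threshold. With a pseudocount of 0.1 FPKM the difference was -3.91 for MAP3K4, 2.74 for MAP2K2 and 3.76 for DUSP14 on the log2 scale. The 152 events become 133 distinct exons, and 127 with at least 28 nucleotides. No paired analysis was possible because each condition has 1 library, and for the same reason no library could be left out. Read depth is unknown, so the level of 1.41 FPKM behind the MAP3K4 difference has no interval.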
